A study of Mus musculus with 6 samples.

Results

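The question was whether muscle cells with little perilipin 2 answer a fatty acid differently from cells that have it. Messenger RNA was profiled on 6 microarrays of mouse C2C12 myotubes, and every array entered the comparison: the change from albumin to fatty acid with Plin2 siRNA minus the same change with scrambled siRNA. It was formed for oleate, for palmitate and for their mean, over all 19938 genes that the probe annotation names, each represented by its probe set of highest mean level. A value above 0 means that the change on adding the fatty acid was more upward, or less downward, with Plin2 siRNA. All values are on the log2 scale, where 1 unit is a 2-fold difference.

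C2C12 is an established mouse myoblast line whose cells fuse into multinucleated myotubes when serum is lowered, here from 10% for growth to 2% for differentiation. Each of the 3 scrambled siRNA arrays and each of the 3 Plin2 siRNA arrays came from cells transfected at 10 nM. Cells of both siRNAs then received 200 µM oleate, 200 µM palmitate or albumin (BSA) without fatty acid for 20 h, with 2.5 fatty acid molecules to each BSA, so the BSA arrays carry the siRNA and the transfection as well. There was 1 array for each of the 6 conditions, and the labels do not say whether cultures were pooled or shared a day.

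Perilipin 2 coats the surface of lipid droplets in cells other than fat cells and limits access of lipases to the stored triglyceride. Fatty acids that enter a muscle cell are stored in droplets, burned in mitochondria or built into membranes, and they also act as ligands: fatty acids switch on the nuclear receptors of the PPAR family, whose targets include the genes for fatty acid import and oxidation. Unsaturated fatty acids such as oleate hold back SREBP transcription factors, which drive sterol and fatty acid synthesis. Saturated palmitate is known in muscle cells for ER stress and inflammatory signalling, and oleate is known to favour storage as triglyceride.

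The array medians lay between 4.94 and 5.02. Across all 35556 probe sets pairs of arrays with the same siRNA correlated at 0.991 to 0.994 and pairs with different siRNAs at 0.987 to 0.992. The lowest of the former were those of scrambled palmitate with scrambled oleate (0.991) and scrambled BSA (0.993). Since a condition is 1 array, a trait of that array and an effect of its condition cannot be told apart, and a p-value here reflects nothing but the scatter among these 6 arrays. All 12 defining myotube markers had a mean level of at least 6 (values from 6.40 to 13.67). None of the 5 adipocyte, 3 osteoblast and 5 leukocyte defining markers measured reached 6 (values from 3.30 to 5.45), while 3 of 5 fibroblast and 2 of 3 undifferentiated myoblast markers did. A level of 6 is used below to separate brighter from dimmer genes, and 9472 genes (47.5%) had a mean of at least 6.

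Plin2 was the target of the siRNA and is itself a fatty acid responsive gene. Its scrambled siRNA arrays read 9.29 (BSA), 10.03 (oleate) and 10.10 (palmitate), against 6.95, 7.63 and 7.45 under Plin2 siRNA. Every Plin2 siRNA array lay below every scrambled array, and within each siRNA both fatty acid arrays lay above the BSA array. The step up was 0.74 and 0.69 with oleate and 0.81 and 0.50 with palmitate (scrambled and Plin2 siRNA). The mean difference between the responses was -0.18 with a 95% confidence interval of -0.58 to 0.22.

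No gene passed the test for a response to fatty acid that differed between the siRNAs. limma with Benjamini-Hochberg adjustment called 0 of 19938 genes (0%) at an adjusted p of 0.05, and the lowest adjusted p was 0.9998. An unadjusted p under 0.05 was reached by 511 genes (2.56%), of which 188 were above 0 and 323 below, where 997 genes would be 5% of those tested. The error in this test is how far the oleate and palmitate values of a gene lie from each other. It has a single residual degree of freedom of its own, so the test finds changes that both fatty acids share. Both values subtract the same BSA arrays. A trait of either BSA array thus enters both alike and adds nothing to the error. Agreement between the fatty acids is therefore not independent evidence. At the median standard error a lone gene of mean level 6 or more would need a mean difference of about 1.35 to pass. Over all genes it would need about 1.64. Genes with a smaller standard error, or several changed genes together, would need less.

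Differences of size were few. The mean over both fatty acids was at or above 1 in 4 genes (0.0201%) and at or below -1 in 13 (0.0652%), and 1 of these 17, Cd24a, had a mean level of at least 6. For oleate alone, 15 genes were at or above 1 (0.0752%) and 15 at or below -1 (0.0752%). For palmitate alone the counts were 25 (0.125%) and 47 (0.236%). Each of these rests on 4 arrays and has no test.

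Genes called for a fatty acid over both siRNAs were also read for a difference between the siRNAs. In an additive fit over all 6 arrays, limma called 7 genes higher with oleate (0.0351%) and 9 lower (0.0451%), and 2 higher (0.01%) and 0 lower with palmitate. The estimates behind these calls average over the siRNAs, but the error of this fit is made of the differences between the siRNAs' responses. A gene with a large difference is therefore less likely to be called. The values below are limited by that choice and cannot show that the responses were alike. Of the 16 genes in all, 0 had an adjusted p under 0.05 for a difference between the siRNAs. Their mean differences ran from -0.23 for Rnf145 to 0.42 for Angptl4.

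Angptl4, a secreted inhibitor of lipoprotein lipase and a PPAR target, had the largest response on these arrays. With scrambled siRNA it stood at 8.41 in BSA, 10.73 with oleate and 10.43 with palmitate, and at 7.70, 10.52 and 10.06 with Plin2 siRNA. The fatty acid arrays stood far above the BSA array in both siRNAs, and the BSA array of Plin2 siRNA was the lowest of all. The response was thus larger with Plin2 siRNA by 0.50 for oleate and 0.34 for palmitate, a mean of 0.42 whose unadjusted 95% confidence interval was 0.06 to 0.78.

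Cpt1a, the enzyme that lets long-chain fatty acids into mitochondria, showed nearly the same step with both siRNAs. Its level was 7.89, 9.31 and 9.12 in BSA, oleate and palmitate with scrambled siRNA and 8.20, 9.59 and 9.33 with Plin2 siRNA. The mean difference between the responses was -0.07 (95% confidence interval -0.44 to 0.31). Pdk4, the kinase that switches off pyruvate dehydrogenase, behaved like Angptl4. It stood at 7.86, 9.14 and 8.14 with scrambled siRNA and at 7.42, 9.01 and 8.23 with Plin2 siRNA, with its lowest value again in the BSA array of Plin2 siRNA. Its mean difference was 0.41 (unadjusted interval 0.00 to 0.82).

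**Figure D1:**
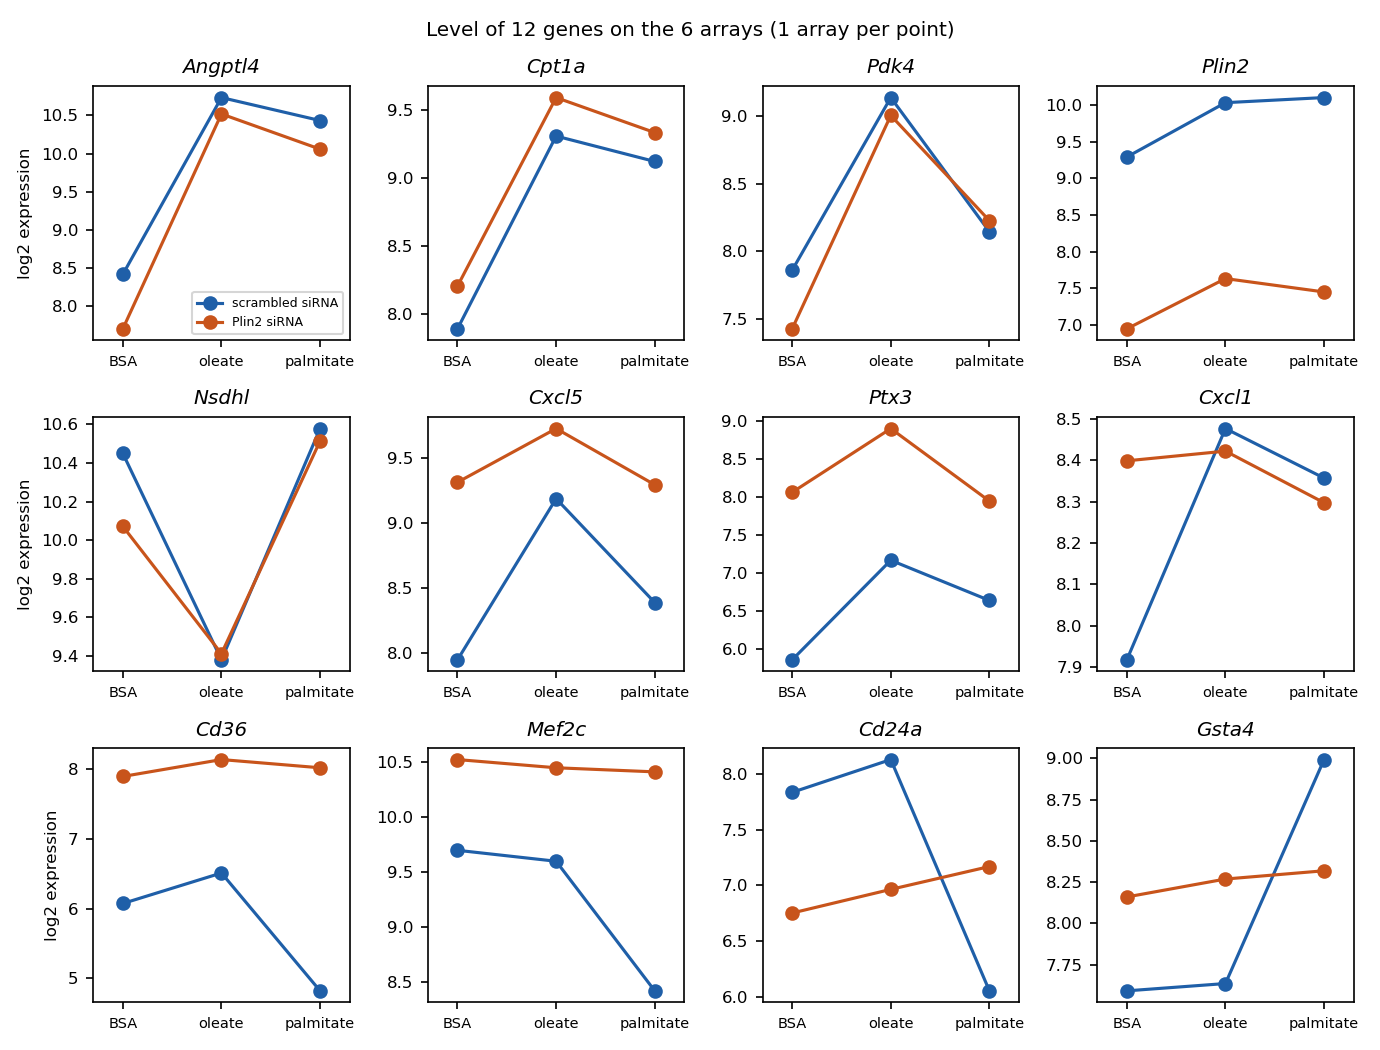
log2 expression of 12 genes (vertical axes, a separate range for each gene) in BSA, oleate and palmitate, 1 array per point, with scrambled siRNA in blue and Plin2 siRNA in orange. Angptl4, Cpt1a and Pdk4 lie above BSA with both fatty acids in both siRNAs, whereas Cd36, Mef2c and Cd24a are lowest at palmitate on the scrambled line; with Plin2 siRNA their palmitate values differ from BSA by 0.12, -0.11 and 0.42.

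The wider list of 40 PPAR-responsive fatty acid genes, 34 of them measured, had 0 members called. Its median response to oleate was 0.12 with scrambled siRNA and 0.18 with Plin2 siRNA, and to palmitate -0.01 and 0.13. The median difference was 0.09 for oleate and 0.20 for palmitate, beside 0.02 and -0.02 over all genes and 0.04 and 0.06 over those of mean level 6 or more, to which 25 of the 34 belong. Above 0 lay 22 and 23 of the 34 members. Of the 25 brighter members 16 and 20 did (medians 0.09 and 0.25), beside 59.9% and 62.0% of all genes of that level. Ucp3, a mitochondrial carrier of muscle, stood at 5.17, 5.87 and 5.26 in BSA, oleate and palmitate with scrambled siRNA and at 4.63, 5.41 and 5.46 with Plin2 siRNA. Its palmitate value differed in pattern, being near BSA with scrambled siRNA and near oleate with Plin2 siRNA (difference 0.74). In the mean, 1 member was at or above 0.5 (1.14% of all genes) and 2 were at or below -0.5 (2.4%). The largest mean difference of the list was that of Cyp4a10 (-1.18), and Vnn1 had -0.57. Both were dim, with mean levels of 3.26 and 3.65. Acadl, an enzyme of beta-oxidation, differed by 0.00 for oleate and 0.25 for palmitate. Acaa2, another, differed by -0.31 and 0.33, and Fabp3, a fatty acid carrier protein of muscle, by -0.21 and 0.36.

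Sterol and fatty acid synthesis genes were lower with oleate in both siRNAs, by their medians. The median response of the 20 measured genes of cholesterol synthesis and SREBP2 targets to oleate was -0.60 with scrambled siRNA and -0.44 with Plin2 siRNA, and to palmitate 0.03 and 0.24. The median difference was 0.21 for oleate and 0.23 for palmitate, and 15 and 19 of the 20 members lay above 0. No member passed the limma test, and 2 had an unadjusted p under 0.05 (2.56% of all genes). Among genes of mean level 6 or more, to which all 20 belong, 59.9% were above 0 for oleate and 62.0% for palmitate.

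Nsdhl, an enzyme that removes methyl groups from sterol precursors, had one of the largest mean differences of this list. With scrambled siRNA it stood at 10.45 in BSA, 9.38 with oleate and 10.58 with palmitate, and at 10.07, 9.41 and 10.51 with Plin2 siRNA. The oleate arrays reached the same level, and the BSA array was lower with Plin2 siRNA. By the list's median levels both were lower with Plin2 siRNA: 9.78 against 9.30 in BSA and 9.38 against 8.99 with oleate (scrambled against Plin2 siRNA). The mean difference of Nsdhl was 0.36 (unadjusted 95% confidence interval 0.01 to 0.71). Insig1, the ER protein that retains SREBP, gave -0.04 for oleate and 0.37 for palmitate, and Hmgcs1, which makes the precursor HMG-CoA, 0.24 and 0.20. Sqle, squalene epoxidase, was the list's 1 member below 0 in the mean (-0.10).

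The region just before the Hmgcs1 gene is shown because Hmgcs1 was the 1 gene of this list with the sterol response element letters TCACNCCAC, on either strand, within 250 bases upstream of its start. The sequence is RefSeq's on GRCm38.p6, chr13:119690101-119690350, plus strand, 5′ to 3′, and capitals mark the match, which begins 137 bases before the start.
Hmgcs1: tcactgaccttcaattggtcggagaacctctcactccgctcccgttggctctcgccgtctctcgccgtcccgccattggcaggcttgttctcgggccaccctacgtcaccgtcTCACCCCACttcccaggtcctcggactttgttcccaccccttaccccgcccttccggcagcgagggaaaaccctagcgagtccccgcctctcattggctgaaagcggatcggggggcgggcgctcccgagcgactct
These letters were in 1 of the 16 list genes with such a window (6.25%) and in 188 of 15614 genes in all (1.2%). The match describes the letters and not these arrays.

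In the list for fatty acid synthesis and desaturation (22 measured, 0 called), the median response to oleate was -0.28 with scrambled siRNA and -0.15 with Plin2 siRNA, and the median difference was 0.15 for oleate and 0.05 for palmitate (0.14 after centring). Fads2, which desaturates polyunsaturated precursors, fell with oleate in the additive fit. It stood at 9.92, 8.95 and 10.26 with scrambled siRNA and at 8.93, 8.28 and 9.42 with Plin2 siRNA, a mean difference of 0.24. Scd1 and Scd2, which make monounsaturated from saturated fatty acids, differed by means of 0.06 and 0.16. The 13 measured LXR targets had a median difference of 0.09 for oleate and -0.01 for palmitate, the latter 0.07 after quantile normalization and 0.09 after centring.

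**Figure D2:**
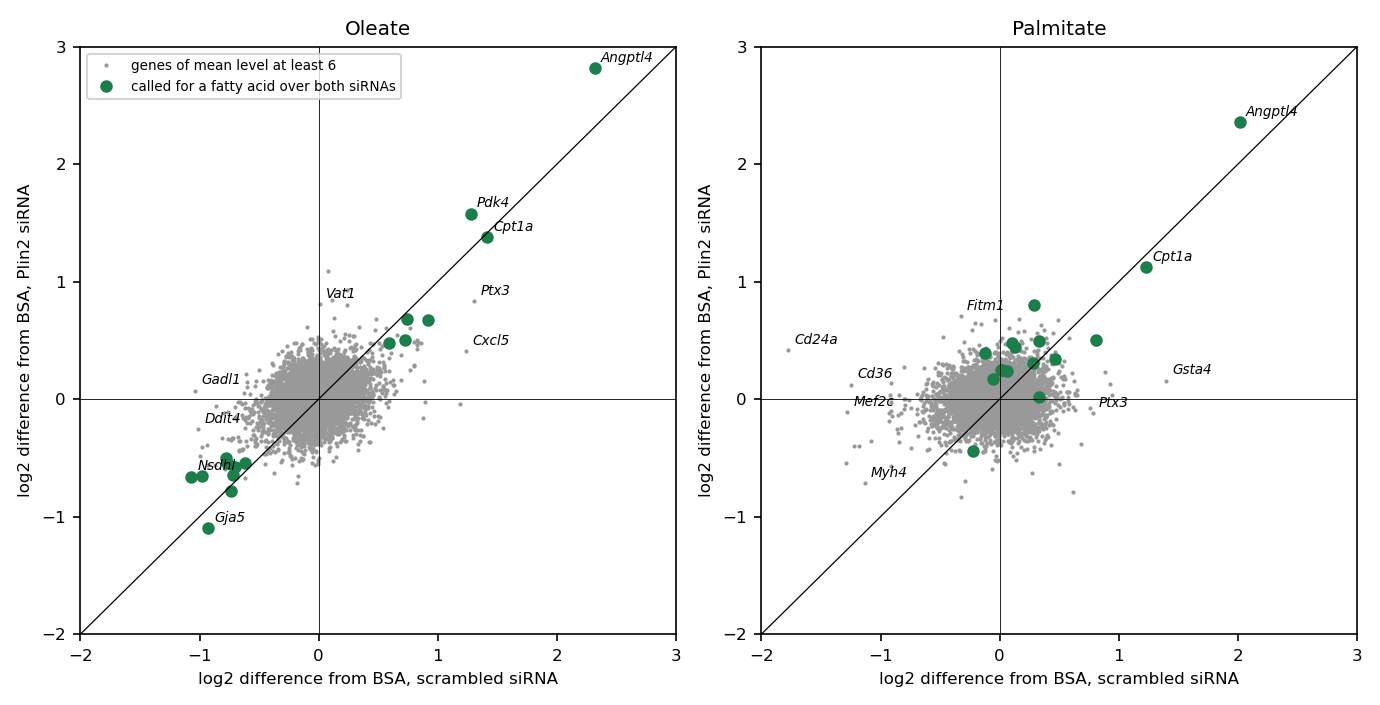
Change from BSA with scrambled siRNA (horizontal axis) against the change with Plin2 siRNA (vertical axis), log2, for the 9472 genes of mean level 6 or more, oleate left and palmitate right. The diagonal is an equal response. Genes called for a fatty acid in the additive fit (green) lie near it for oleate, though a gene far from it is less likely to be called. Palmitate holds a tail of genes that are low with scrambled siRNA and less so with Plin2 siRNA.

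Over all genes the responses with the 2 siRNAs were only loosely related. The responses of the 2 siRNAs to one fatty acid share no array. Across the 9472 genes of mean level 6 or more, which are not independent replicates, their correlation was 0.34 for oleate and 0.15 for palmitate, and across all genes 0.17 and 0.0024. The points share array preparation and the dimness of many probes, so no p is given.

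The scrambled siRNA arrays also held more genes away from BSA. Among genes of mean level 6 or more, 197 were at or past 0.5 with palmitate under scrambled siRNA (46 higher, 151 lower) and 38 under Plin2 siRNA (23 higher, 15 lower). For oleate the counts were 168 and 66. The standard deviation of the response across these genes was 0.195 against 0.136 for palmitate and 0.182 against 0.158 for oleate. The order was kept after quantile normalization (176 against 40 for palmitate, 160 against 70 for oleate) and after centring each array on its median (268 against 44, and 165 against 65). Since BSA, oleate and palmitate were each 1 array, the part of any single array in this was not tested.

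Palmitate gave the largest single differences. At a mean level of 6 or more, 8 genes were lower by 1 or more with palmitate under scrambled siRNA (median -1.24). With Plin2 siRNA 6 of the 8 were also lower, 2 by 0.5 or more and 0 by 1 (median -0.37). The 8 were chosen by their scrambled siRNA values, so a smaller fall on other arrays is not by itself a changed response. Under Plin2 siRNA, 2 genes were higher by 1 or more, Angptl4 and Cpt1a, and 0 were lower by that much. The genes named next were chosen for their palmitate difference, so these values are a description.

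Cd24a, which encodes a small surface glycoprotein, stood at 7.83 in BSA, 8.13 with oleate and 6.06 with palmitate with scrambled siRNA and at 6.75, 6.96 and 7.17 with Plin2 siRNA. The scrambled palmitate array was the lowest of the 6 and the scrambled oleate array the highest. The difference was 2.20 for palmitate and -0.08 for oleate. Cd36, the fatty acid translocase of the plasma membrane, stood at 6.07, 6.51 and 4.82 with scrambled siRNA and at 7.89, 8.13 and 8.01 with Plin2 siRNA. All Plin2 siRNA arrays lay above all scrambled ones, and the difference in response was 1.37 for palmitate and -0.19 for oleate.

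Mef2c, a transcription factor of muscle differentiation, had a like pattern. Its level was 9.70, 9.60 and 8.42 with scrambled siRNA and 10.52, 10.45 and 10.41 with Plin2 siRNA. It was flat across treatments with Plin2 siRNA, and the difference was 1.17 for palmitate and 0.02 for oleate. Fitm1, which helps triglyceride bud into droplets, stood at 5.93, 5.70 and 5.60 with scrambled siRNA and at 7.05, 7.21 and 7.76 with Plin2 siRNA, a palmitate difference of 1.03. Tspan13 and Asb16 had palmitate differences of 1.05 and 1.08.

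In the other direction, Gsta4, a glutathione transferase for products of lipid peroxidation, stood at 7.59, 7.63 and 8.99 with scrambled siRNA and at 8.16, 8.27 and 8.32 with Plin2 siRNA. The scrambled palmitate array was the highest of the 6, and the difference was -1.24 for palmitate and 0.06 for oleate. Nqo1, a quinone reductase and like Gsta4 a target of the oxidative stress factor NRF2, stood at 4.97, 5.36 and 5.94 against 4.95, 4.91 and 4.95. The NRF2 list as a whole did not share this size, with a median palmitate difference of -0.09 over 29 measured members, 10 of them above 0 and 0 called. Of genes of mean level 6 or more, to which 25 of the 29 belong, 62.0% lay above 0 for palmitate. Atf3, a stress-induced transcription factor, was 6.68, 6.71 and 7.61 with scrambled siRNA and 5.32, 5.44 and 5.44 with Plin2 siRNA, a palmitate difference of -0.80. Macrod2 had the lowest palmitate value of the brighter genes (-1.41), but the other 5 of its 6 probe sets lay between -0.52 and 0.14.

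Genes of the muscle fibre were lower with palmitate under scrambled siRNA and near BSA with Plin2 siRNA. The median palmitate response of the 61 measured contractile and differentiation genes was -0.25 with scrambled siRNA and -0.03 with Plin2 siRNA, and their median oleate response was -0.09 and -0.04. The median difference was 0.23 for palmitate, beside -0.02 over all genes and 0.06 over those of mean level 6 or more. It was 0.20 after quantile normalization and 0.32 after centring. For palmitate 58 of the 61 members lay above 0, where 62.0% of genes of mean level 6 or more did, and for oleate 40 of the 61. For palmitate 5 members were at or above 0.5 (2.55% of all genes) and 0 at or below -0.5 (5.9%). Among genes of mean level 6 or more, to which 57 of the 61 belong, these shares were 2.26% and 1.32%. For oleate 2 were at or above 0.5 (2.82% of all genes, 1.38% of the brighter) and 3 at or below -0.5 (2.75% and 0.79%). Of the members 0 were called. In a whole culture, fewer myotubes and less muscle RNA in each cannot be told apart.

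Myh4 and Myh1, fast myosin heavy chains, stood at different heights. With palmitate under Plin2 siRNA, Myh1 was near BSA whereas Myh4 was still lower. Myh4 was 7.83 in BSA, 7.41 with oleate and 6.70 with palmitate with scrambled siRNA and 7.11, 7.23 and 6.40 with Plin2 siRNA. Myh1 was 11.50, 11.28 and 10.96 with scrambled siRNA and 11.29, 11.26 and 11.22 with Plin2 siRNA. Palmitate was the lowest array of each siRNA for both genes. Its differences from BSA were -1.13 and -0.71 for Myh4 and -0.54 and -0.07 for Myh1. Between the siRNAs the response of Myh4 differed by 0.54 for oleate and 0.42 for palmitate, and that of Myh1 by 0.19 and 0.47. The slow chain Myh7 had a mean difference of 0.29, and Myog, the myogenic factor of fusing cells, one of 0.04. Myl2 and Myot, a slow myosin light chain and a Z-disc protein, had mean differences of 0.66 and 0.61, and their levels under Plin2 siRNA were far from those under scrambled siRNA (4.60 against 8.09 and 8.02 against 5.95 in BSA).

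The upstream regions of the fast myosin genes are shown because Mef2c, a member of the MEF2 family, had one of the largest palmitate differences and both regions hold the MEF2 motif. The MEF2 motif was searched by its usual degenerate form on both strands of the 250 bases before each start, and capitals mark the match. The sequences are RefSeq's on GRCm38.p6, plus strand, 5′ to 3′: Myh4 is chr11:67237562-67237811, with the match beginning 182 bases before the start, and Myh1 is chr11:67199852-67200101, with the match 211 bases before.
Myh4: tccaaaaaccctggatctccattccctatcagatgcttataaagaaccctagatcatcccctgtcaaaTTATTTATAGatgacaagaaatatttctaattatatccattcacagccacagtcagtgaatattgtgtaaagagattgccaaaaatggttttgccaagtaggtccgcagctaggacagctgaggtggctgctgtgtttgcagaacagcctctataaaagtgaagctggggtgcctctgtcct
Myh1: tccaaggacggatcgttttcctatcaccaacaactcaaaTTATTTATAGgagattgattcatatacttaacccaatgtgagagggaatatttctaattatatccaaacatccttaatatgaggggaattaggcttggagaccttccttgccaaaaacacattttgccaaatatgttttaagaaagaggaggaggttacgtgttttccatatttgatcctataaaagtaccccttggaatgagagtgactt
The motif was in 7 of the 48 contractile genes with a window (14.6%) and in 444 of 15614 genes in all (2.84%). A match is a description of these letters only.

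Mitochondrial genes had smaller differences of the same sign. The 70 measured genes of oxidative phosphorylation had a median palmitate response of -0.17 with scrambled siRNA and -0.04 with Plin2 siRNA, and 60 of the 70 differences lay above 0 (median 0.16, but 0.11 after quantile normalization and 0.26 after centring). The 21 genes of the tricarboxylic acid cycle had -0.20 and -0.04, with 20 of 21 above 0 (median 0.18, and 0.13 and 0.27 under these scalings). The 22 genes of mitochondrial fatty acid oxidation had -0.05 and 0.08, with 19 of 22 above 0 (median 0.18, and 0.12 and 0.27). Of all genes of mean level 6 or more, as all members of these lists are, 62.0% lay above 0 for palmitate. For oleate the median differences of these 3 lists were 0.02, 0.08 and 0.01, the last -0.01 after quantile normalization, and 0 members of any of them were called. Cox5a, a subunit of cytochrome oxidase, had one of the larger mean differences (0.45), with 9.73, 9.67 and 9.40 under scrambled siRNA and 9.61, 10.04 and 9.68 under Plin2 siRNA. Ndufs6, of complex I, went the other way (-0.54).

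**Figure D3:**
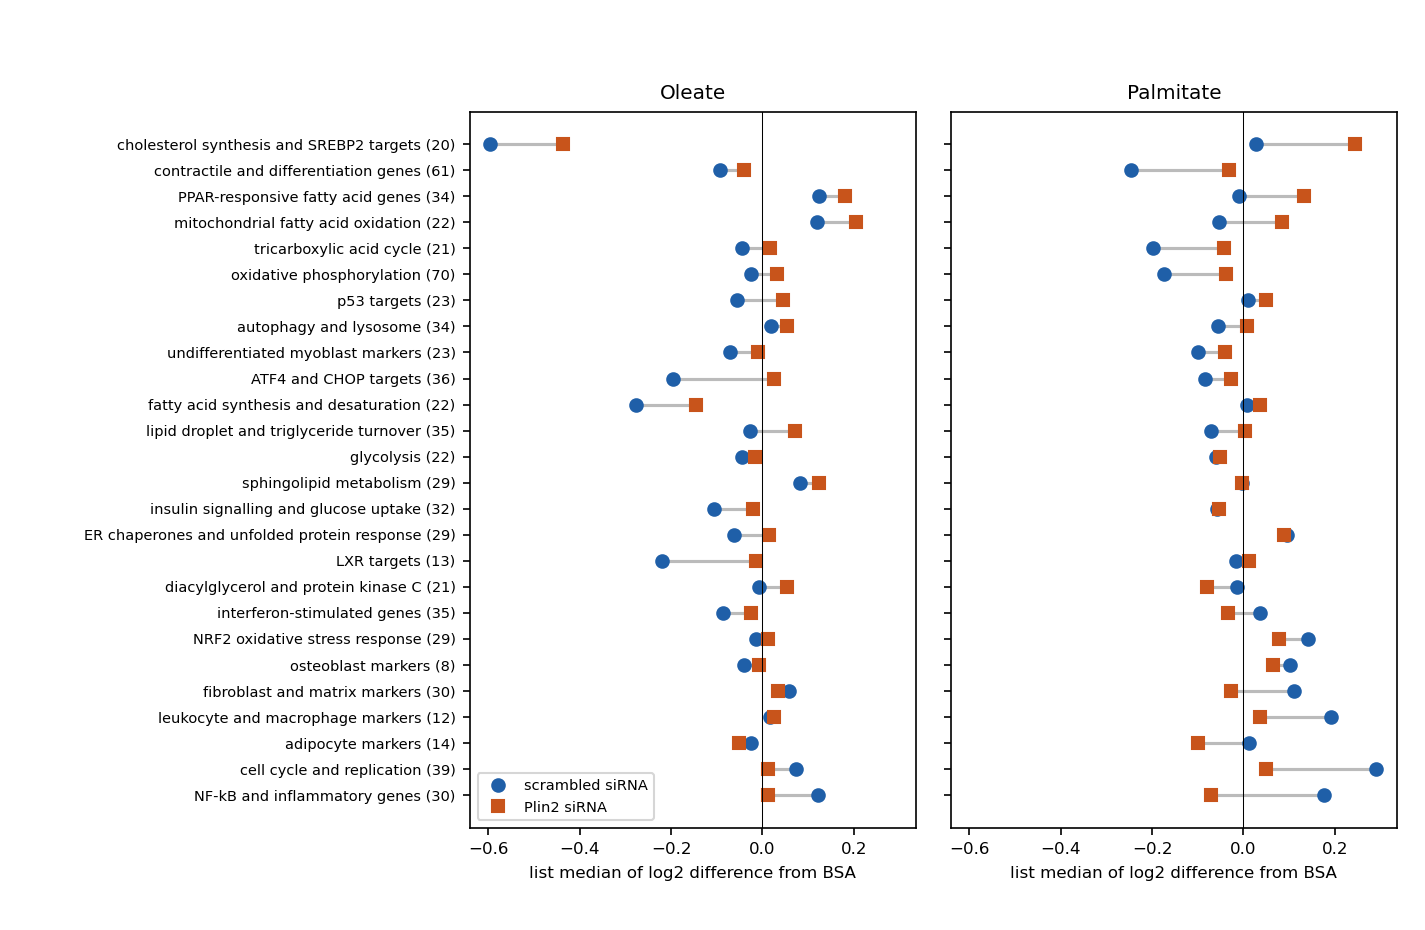
Median change from BSA over the measured members of 26 gene lists (number of members in brackets) with scrambled siRNA (blue circles) and Plin2 siRNA (orange squares), log2, oleate left and palmitate right. For palmitate the contractile list sits at -0.25 with scrambled siRNA and -0.03 with Plin2 siRNA, and the NF-kB list at 0.18 and -0.07.

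Inflammatory genes showed the opposite sign: higher with fatty acid under scrambled siRNA and near BSA with Plin2 siRNA. The 30 measured NF-kB and inflammatory genes had a median oleate response of 0.12 with scrambled siRNA and 0.01 with Plin2 siRNA, and a median palmitate response of 0.18 and -0.07. The median difference was -0.16 for oleate and -0.25 for palmitate, with 21 and 25 of the 30 members below 0. After quantile normalization these medians were -0.18 and -0.28, and after centring both were -0.16. Of genes of mean level 6 or more, to which 20 of the 30 belong, 40.1% and 38.0% lay below 0. Of the dimmer genes 50.5% and 65.1% did. In the mean, 4 of the 30 were at or below -0.5 (2.4% of all genes), 6 had an unadjusted limma p under 0.05 (2.56%) and 0 were called.

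Cxcl5, a chemokine that attracts neutrophils, stood at 7.95 in BSA, 9.19 with oleate and 8.39 with palmitate with scrambled siRNA and at 9.32, 9.73 and 9.30 with Plin2 siRNA. The BSA array of Plin2 siRNA was already above every scrambled array. The difference was -0.83 for oleate and -0.46 for palmitate, a mean of -0.64 (unadjusted 95% confidence interval -1.05 to -0.24). The list's lowest mean differences were those of Icam1 (-0.67) and Il15 (-0.66), both dim (mean levels 5.28 and 4.42). Ptx3, a soluble pattern recognition protein outside this list, was named for its low mean difference. It had the same layout as Cxcl5, with 5.85, 7.16 and 6.63 against 8.06, 8.89 and 7.94. Its differences were -0.47 and -0.90.

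Cxcl1, another neutrophil chemokine, had equal differences for both fatty acids (-0.54 each). It stood at 7.92, 8.48 and 8.36 with scrambled siRNA and at 8.40, 8.42 and 8.30 with Plin2 siRNA, so its scrambled BSA array was the low one and the other 5 arrays lay within a narrow band. Ccl2, a monocyte chemokine, stood at 6.38, 7.18 and 6.70 against 6.90, 7.19 and 6.83, and Vcam1, an adhesion molecule, at 9.93, 10.47 and 10.34 against 9.93, 10.05 and 10.02. For Ccl2 the BSA arrays of the siRNAs differed as for Cxcl1, while for Vcam1 they were equal and the fatty acid arrays differed. Il6 was dim (4.76 to 5.10) and had a mean difference of 0.02. Of the defining leukocyte markers, Ptprc, Adgre1, Csf1r, Itgam and Tyrobp, 0 reached a level of 6 on any array, and the 12 measured genes of the leukocyte list had a median difference of -0.09 for oleate and -0.16 for palmitate.

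The Cxcl1 upstream region is shown because its differences were the same for both fatty acids and because it holds the NF-kB letters (GGG, any 2 bases, then TTTCC) on both strands. It is RefSeq's sequence on GRCm38.p6, chr5:90890995-90891244, plus strand, 5′ to 3′, and the matches in capitals begin 89 and 71 bases before the start.
Cxcl1: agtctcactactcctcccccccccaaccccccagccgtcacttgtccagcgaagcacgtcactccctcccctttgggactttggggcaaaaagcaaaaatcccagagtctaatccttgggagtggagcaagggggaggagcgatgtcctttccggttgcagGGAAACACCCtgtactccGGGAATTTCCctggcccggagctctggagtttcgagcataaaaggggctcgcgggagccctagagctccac
These letters, searched on both strands, were in 7 of the 21 list genes with a window (33.3%) and in 251 of 15614 genes in all (1.61%). The list was written from textbook knowledge of NF-kB and inflammatory genes, so a higher share can follow from that choice. The matches describe the letters and not these arrays.

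The 10 genes with the highest and the 10 with the lowest mean difference, among genes of mean level 6 or more whose oleate and palmitate values had the same sign, did not pass the test. Gadl1, a decarboxylase that makes beta-alanine in muscle, was highest at 0.86. It stood at 7.28, 6.24 and 7.08 with scrambled siRNA and at 5.67, 5.75 and 6.08 with Plin2 siRNA, so the scrambled oleate array was low and all Plin2 siRNA arrays were lower still. Krt33b, a hair keratin, followed at 0.77 and Dnajb14, a chaperone of the ER membrane, at 0.72 for both fatty acids. Dnajb14 stood at 7.71, 7.45 and 7.22 against 7.39, 7.85 and 7.62, with opposite directions in the 2 siRNAs. Rrm2b, a p53-induced ribonucleotide reductase subunit, had 0.65.

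Tesc, a calcium-binding protein, was lowest at -0.81, with 5.77, 5.99 and 6.27 under scrambled siRNA and 6.47, 6.12 and 5.92 under Plin2 siRNA. Rprl1 and Rprl2, copies of the ribonuclease P RNA, had -0.60 and -0.64. Copies of a gene can share probe signal, so their values are not separate evidence. Ptma-ps2, Gm7102 and Gm10785 are predicted or pseudogene loci, and their values (-0.79, -0.75 and -0.65) can hold signal from related genes. Gm10785 stood at -1.23 for oleate and -0.07 for palmitate.

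**Figure D4:**
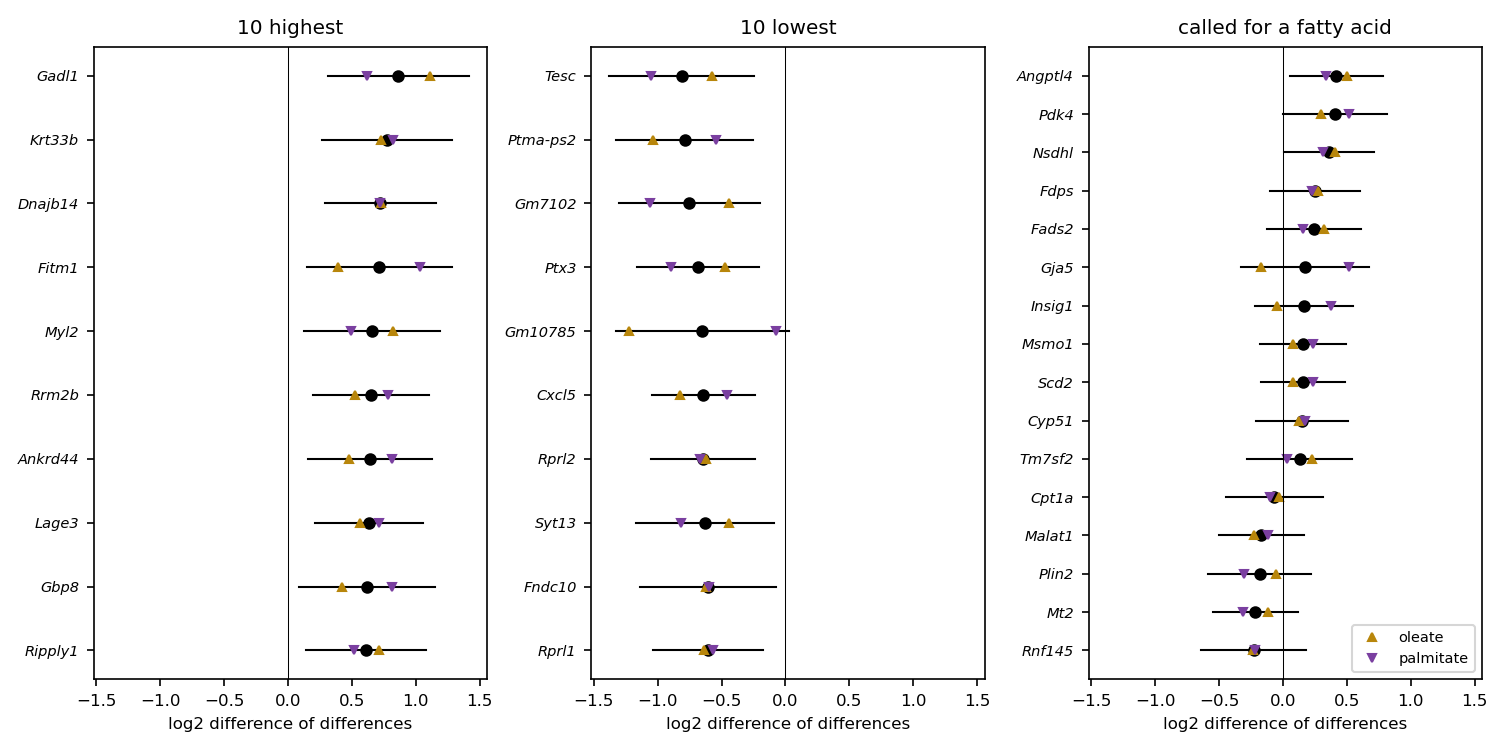
Mean difference between the responses with Plin2 and scrambled siRNA (black point, log2, with its unadjusted 95% confidence interval from limma) and the oleate and palmitate values (triangles up and down). Shown are the 10 highest and 10 lowest genes of mean level 6 or more and the 16 genes called for a fatty acid; the called genes run from -0.23 to 0.42.

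Genes of the amino acid stress response were lower in oleate under scrambled siRNA and near BSA under Plin2 siRNA. The 36 measured ATF4 and CHOP targets had a median oleate response of -0.20 with scrambled siRNA and 0.03 with Plin2 siRNA, and 33 of 36 differences lay above 0 (median 0.20, and 0.19 and 0.20 after quantile normalization and centring). For palmitate the median difference was 0.05, -0.01 after quantile normalization, and 21 of 36 were above 0. Of genes of mean level 6 or more, to which 33 of the 36 belong, 59.9% lay above 0 for oleate. Of the 36, 5 were at or above 0.5 for oleate (2.82% of all genes) and 0 were called. Mthfd2, a mitochondrial folate enzyme, stood at 10.23, 9.83 and 9.97 with scrambled siRNA and at 8.82, 8.98 and 9.00 with Plin2 siRNA. Trib3, a pseudokinase induced by CHOP, stood at 7.61, 6.99 and 7.52 against 6.79, 6.76 and 6.62. In both genes the scrambled arrays were the high ones and oleate was the lowest of them.

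Fgf21, a hormone that stressed muscle releases, stood at 11.27, 10.85 and 10.99 against 8.94, 9.11 and 8.92. Ddit4, an inhibitor of mTOR complex 1, had an oleate difference of 0.75, from 7.82, 6.81 and 7.69 against 7.06, 6.80 and 6.80. Asns, asparagine synthetase, differed by a mean of 0.27. Ddit3, which encodes CHOP itself, differed by a mean of -0.06 (6.41 to 6.60 over all arrays). The 29 genes of ER chaperones and the unfolded protein response had median differences of 0.06 for oleate and 0.00 for palmitate (-0.05 and 0.10 under the 2 scalings), and the chaperone Hspa5 differed by a mean of 0.02.

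Cell cycle genes had differences of the same sign as the inflammatory ones. Their 39 measured members had a median palmitate response of 0.29 with scrambled siRNA and 0.05 with Plin2 siRNA, with 31 of 39 differences below 0 (median -0.25, but -0.16 after centring), and a median oleate difference of -0.07. Below 0 for palmitate lay 38.0% of the genes of mean level 6 or more, to which 32 of the 39 belong, and 65.1% of the dimmer genes. Top2a, a topoisomerase of dividing cells, stood at 6.80, 7.45 and 7.33 against 6.90, 6.97 and 7.02, a mean difference of -0.50 (unadjusted interval -0.96 to -0.03). Mki67, a marker of proliferation, was 5.87 to 6.15 on all arrays and differed by a mean of 0.11. No member was called. Fibroblast and matrix markers (30 measured) had a median palmitate difference of -0.14, with 25 of 30 below 0, and an oleate median of 0.00. Of the 30, 27 had a mean level of at least 6, where 38.0% of genes lay below 0 for palmitate. The palmitate median was -0.17 after quantile normalization and -0.05 after centring. Dcn, the matrix proteoglycan decorin, was 7.22, 7.64 and 7.30 against 7.19, 7.17 and 6.93.

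For the remaining lists the medians to set beside them are 0.02 for oleate and -0.02 for palmitate over all genes. Over genes of mean level 6 or more they are 0.04 and 0.06. To that level belong 34 of the 34 autophagy, 22 of the 23 myoblast and 21 of the 23 p53 genes. So do 19 of the 22 glycolysis, 27 of the 32 insulin and 22 of the 35 lipid droplet genes. Lipid droplet and triglyceride turnover (35 measured) had 0.04 for oleate and 0.05 for palmitate, and the values that follow are in that order. Within it Plin4 and Plin5, perilipins of muscle droplets, were dim (4.32 to 5.02) and differed by means over both fatty acids of 0.13 and -0.01. Insulin signalling and glucose uptake (32 measured) had 0.09 and 0.00. Its member Irs1, the insulin receptor substrate, had 0.11 and -0.09. Slc2a4, the insulin-responsive glucose transporter, had -0.64 and 0.33. Glycolysis (22) had 0.05 and 0.05, autophagy and lysosome (34) -0.04 and 0.08, p53 targets (23) 0.07 and 0.10, and undifferentiated myoblast markers (23) 0.00 and 0.07.

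Sphingolipid metabolism (29 measured), the pathway that turns palmitate into ceramide, had -0.01 and 0.04. Diacylglycerol and protein kinase C genes (21) had 0.01 and -0.06. Interferon-stimulated genes (35) had 0.02 and -0.07, adipocyte markers (14) 0.04 and -0.21 and osteoblast markers (8) 0.03 and -0.12. Most members of the last 3 lists were dim: 11, 4 and 0 of them had a mean level of at least 6, and over the 11 and the 4 the palmitate medians were 0.09 and 0.01. After centring the adipocyte and osteoblast palmitate medians were -0.11 and -0.03. Of the 78 list medians, 13 changed sign under quantile normalization or centring. No member of any of the 26 lists was called by limma.

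Brightness went with the sign of the palmitate values. Among the 9472 brighter genes 214 were at or above 0.5 for palmitate and 125 at or below -0.5, and among the 10466 dimmer genes the counts were 294 and 1051. Over all genes that is 508 (2.55%) above and 1176 (5.9%) below, so 30.2% of these were above. The share was 41.9% after quantile normalization (599 and 829) and 58.6% after centring (944 and 668), whereas for oleate it was 50.6%, 52.0% and 51.1%. The median palmitate difference was 0.06 in the brighter and -0.11 in the dimmer genes. The interquartile range of the array values was 4.13 in scrambled BSA and 4.04 in scrambled palmitate, and 4.04 in Plin2 BSA and 4.06 in Plin2 palmitate. Its part in the split by brightness was not tested.

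**Figure D5:**
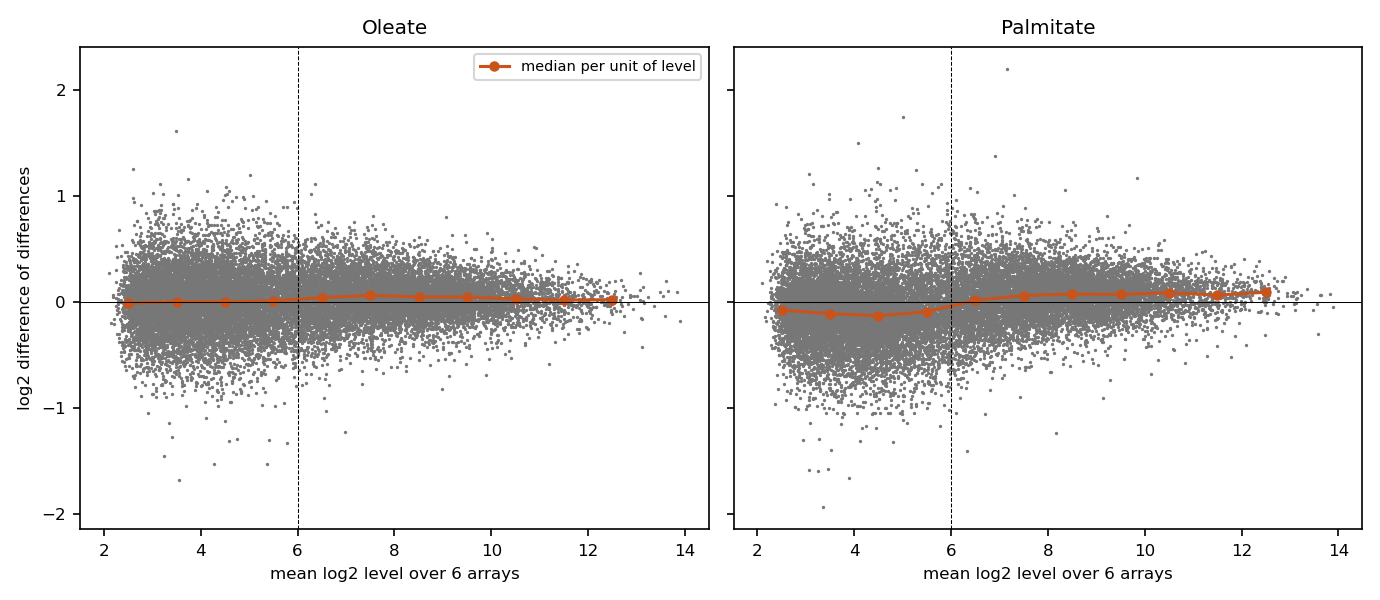
Difference between the responses with Plin2 and scrambled siRNA (vertical axis, log2) against the mean log2 level over the 6 arrays (horizontal axis), 1 point per gene, oleate left and palmitate right. The orange line joins medians per unit of level, and the dashed line marks a level of 6; for palmitate the medians lie below 0 among the dimmer genes and above 0 among the brighter ones.

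The share of large differences was also taken among the genes that Plin2 siRNA changed across the treatments. In the additive fit limma called 1657 genes higher with Plin2 siRNA (8.31%) and 1755 lower (8.8%), as an average over the treatments. The error of that fit is made of the differences between responses, so genes with large ones are less likely to be called. Shares among called genes can be lowered by that choice. Of those higher, 4.89% had a palmitate difference at or above 0.5 and 1.51% one at or below -0.5, and 1.09% and 1.57% for oleate. Of those lower, the shares were 2.74% and 2.05% for palmitate and 3.70% and 1.14% for oleate. Over all genes the shares were 2.55% and 5.9% for palmitate and 2.82% and 2.75% for oleate. Among genes of mean level 6 or more they were 2.26% and 1.32% for palmitate and 1.38% and 0.79% for oleate. The shares over all genes and over brighter genes carry no such choice.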

How the data were processed

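Total RNA with an integrity number above 8 (100 ng) was hybridised to Affymetrix whole-transcript arrays, 1 per condition. The deposited values are log2 expression per probe set, made by RMA per the submitters' processing notes; its version is not given in the sources used here. They were used as deposited. GEO's platform annotation tied 21789 of 35556 probe sets to 1 symbol and 1621 to several, and did not list 12146; 999 genes had more than 1 probe set. The test of differences between responses used limma 3.58.1 (R 4.3.3; terms for treatment, siRNA and siRNA by any fatty acid; eBayes with an intensity trend; 1 residual and 17.5 prior degrees of freedom) and adjusted by Benjamini-Hochberg over the named probe sets. Each fatty acid alone has no test. The additive fit had 2 residual degrees of freedom. The script was tested on simulated data.

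Named genes were Plin2, the 10 highest and 10 lowest mean differences with 1 sign and a mean level of at least 6, the 6 largest differences in each direction for each fatty acid, genes called in the additive fit, the 4 largest of each list, and 35 fixed names, of which 32 were measured. Ptprc, Adgre1 and Csf1r are fixed cell type markers. The comparison, the 26 lists and this rule were chosen with earlier results of these data known. Promoter windows are RefSeq's.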

Additional observations from a re-analysis of the deposited data

Results flagged for a closer look

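Dlx5, a homeobox gene of bone development on the osteoblast list, had responses of opposite direction in the 2 siRNAs for both fatty acids. With scrambled siRNA it stood at 5.41 in BSA, 5.07 with oleate and 5.11 with palmitate, and at 4.94, 5.40 and 5.21 with Plin2 siRNA. The mean difference was 0.674, with an adjusted p of 0.9998 in limma, so it did not pass the test. Such an opposite layout, with every response at or past 0.25, occurred in 38 of all genes (0.191%) and in 0 of the 9472 genes of mean level 6 or more.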

How the results depend on the processing

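The count of 0 genes with a changed response in limma stayed 0 without the intensity trend, with robust eBayes, with all probe sets or 1 per gene in the fit, without the dimmest 33.3% of probe sets, after quantile normalization and after centring. At an unadjusted p under 0.05 these settings gave 123 to 618 genes. A per-gene test without moderation, with 1 degree of freedom, called 1 gene, Sprr2h, and had 815 at an unadjusted p under 0.05. Counts past 1 log2 unit moved. Without the dimmest 33.3% of probe sets, 8 genes were above for oleate, 27 below for palmitate and 4 below in the mean, since fewer genes were tested. Below for palmitate there were 23 after quantile normalization and 20 after centring, and above in the mean 8 and 8; the cause was not tested. Leaving out an oleate array leaves the palmitate difference and the reverse, which gave 15 to 25 genes above and 15 to 47 below in the mean, with no test. A BSA array cannot be left out. No paired analysis was possible because each condition has 1 array and the labels carry no replicate numbers. Settings for the members' level and the counts in the mean were chosen after seeing the data. The depth limit is the number of arrays.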
